A study of Mus musculus with 27 samples.

Results

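The 6 genes of the platelet-derived growth factor (PDGF) system, namely the 4 ligand genes Pdgfa, Pdgfb, Pdgfc and Pdgfd and the 2 receptor genes Pdgfra and Pdgfrb, were followed by their symbols through bulk RNA sequencing of mouse hepatic stellate cells (HSCs). They were 6 of the 53379 genes in the count table, and all 6 were among the 18758 genes with enough counts to be tested. They were chosen by name, as the known ligands and receptors of the family. HSCs store retinoid in the space between hepatocytes and sinusoids and turn into matrix-producing cells on injury. They came from male Balb/c mice and were not cultured before RNA extraction. Sorting relied on the ultraviolet autofluorescence of their retinoid, a gate that keeps only cells still holding retinoid and that other fluorescent cells can enter. Each library comes from a separate numbered sample, and the labels do not tell which mice were pooled, if any, so that p-values measure the spread between these samples.

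Healthy libraries (n = 4) came from mice of 10 to 12 weeks without any injection, and no group given mineral oil alone was analysed here. Acute libraries came from mice of the same age range that had received 1 intraperitoneal injection of carbon tetrachloride (CCl4), a hepatocyte toxin, at 0.5 µL per g of body weight in mineral oil, 24 h (n = 3), 72 h (n = 4) or 7 d (n = 4) before collection. Chronic libraries came from mice that had received 8 such injections over 4 weeks, entering at 8 to 10 weeks of age, and were collected 24 h, 72 h or 14 d after this course (n = 4 each). The comparisons asked how a first injury, a repeated injury and the recovery from it differed from the healthy liver, so that all 6 comparisons with healthy share the same 4 control libraries.

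PDGFs are secreted dimers that bind receptor tyrosine kinases and drive the growth, survival and migration of mesenchymal cells. PDGF-A and PDGF-B are cut inside the cell and are active on release, whereas PDGF-C and PDGF-D leave the cell as latent proteins whose CUB domain must be removed by an extracellular protease. The receptor alpha binds PDGF-A, PDGF-B and PDGF-C, the receptor beta binds PDGF-B and PDGF-D, and PDGF-B is the classical mitogen of HSCs, supplied in the injured liver by platelets, macrophages and endothelial cells.

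Library totals ranged from 6314801 to 13052838 counts. The libraries fell into 2 depth classes, with 8 libraries at or below 7580709 counts (chronic 24 h replicates 1 and 2, chronic 72 h replicates 1 and 2, and all of chronic 14 d) and the others at or above 10792560. Values are given as CPM, the counts of a gene per 1000000 counts of its library, scaled between libraries by the trimmed mean of M values. The 12 HSC markers were all detected in every group, and their summed level lay between 31033 and 51505 CPM in healthy libraries and between 14093 and 34702 CPM in injured ones. Because the RNA is from sorted bulk samples, fewer cells of a type and less RNA per cell cannot be told apart.

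Per kilobase of exon, the receptor genes were the most abundant members in every group. In healthy libraries the mean level was 192.1 ± 36.2 CPM per kb (SD, n = 4) for Pdgfrb and 62.0 ± 13.7 for Pdgfra, against 6.88 ± 1.48 for Pdgfd, 4.21 ± 0.815 for Pdgfa, 0.195 ± 0.194 for Pdgfc and 0.172 ± 0.0618 for Pdgfb. The mean level of Pdgfra per kb was 4.23 times that of the most abundant ligand gene in chronic 72 h and 17.0 times in acute 24 h, the lowest and the highest of the 7 groups. Pdgfd was the ligand gene with the highest mean per kb in healthy, acute 7 d, chronic 72 h and chronic 14 d libraries, and Pdgfa in the other 3 groups.

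**Figure D1:**
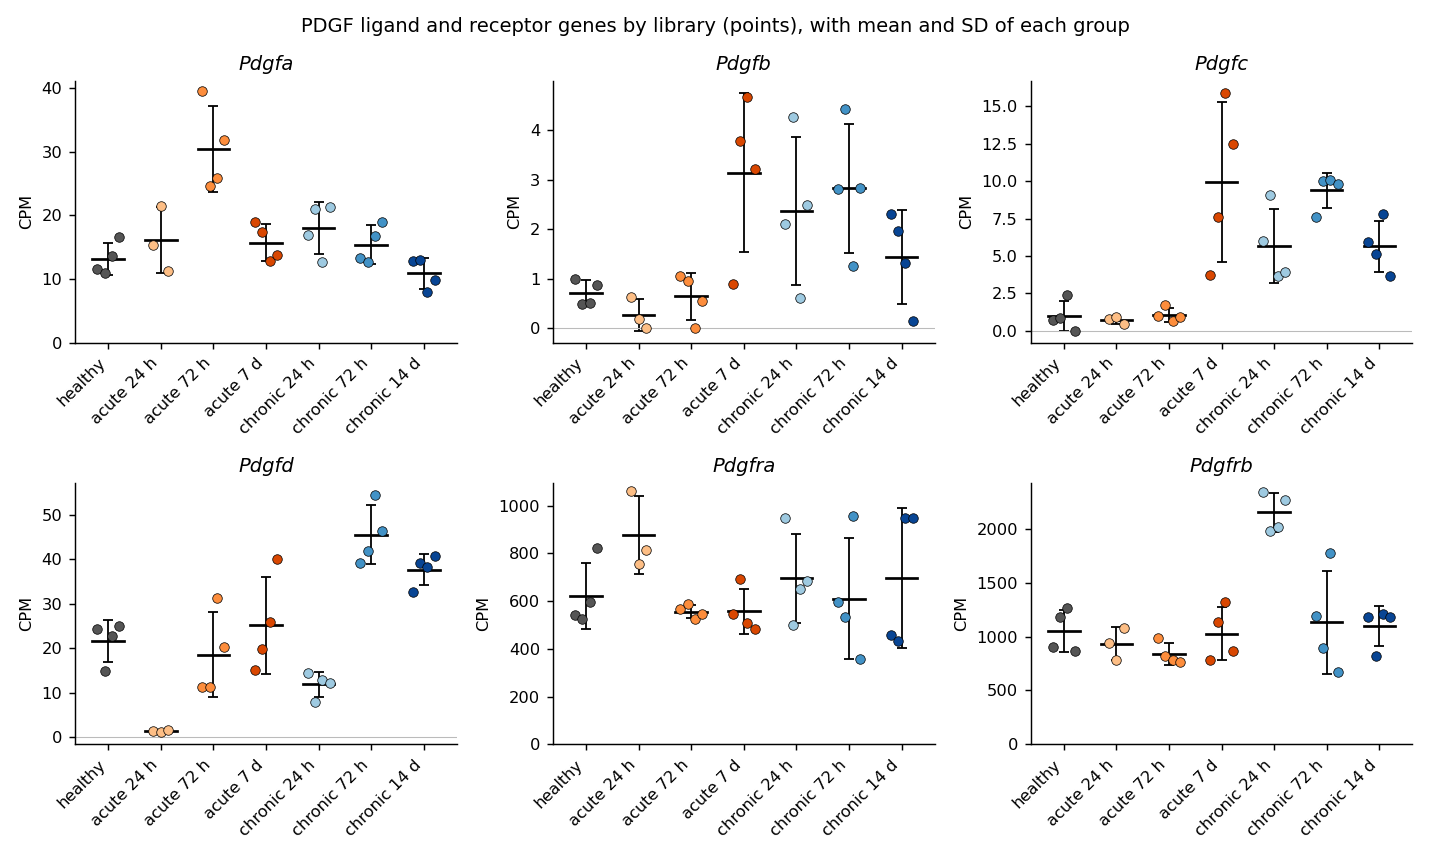
CPM of each PDGF gene (vertical axis, linear) in the 27 libraries (points), by group on the horizontal axis, with the mean and SD of the group in black. Pdgfd sits between 1.04 and 1.67 in the acute 24 h libraries, Pdgfc reaches at most 2.36 in healthy, acute 24 h and acute 72 h libraries and is at least 3.67 in the others, and Pdgfrb stands at 1978 or more in every chronic 24 h library.

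Between groups, a gene was called when its adjusted p (edgeR quasi-likelihood test with Benjamini-Hochberg adjustment over all 18758 genes) was below 0.05 and its change above 2-fold. In acute 24 h against healthy 1 of 6 members was called, lower (Pdgfd), where 12.5% of all genes were called lower, and 1 had no overlap between the groups, where 39.8% of all genes had none. In acute 72 h 1 was higher (Pdgfa), where 8.23% of genes were higher, and the same 1 had no overlap (23.6% of genes). In acute 7 d 1 was higher (Pdgfc), where 9.23% of genes were, and the same 1 had no overlap (24.6%). In chronic 24 h 2 were higher (Pdgfc and Pdgfrb), where 11.2% of genes were, and these and Pdgfd had no overlap (26.4%). In chronic 72 h 2 were higher (Pdgfc and Pdgfd), where 7.88% of genes were, and these and Pdgfb had no overlap (21.1%). In chronic 14 d 1 was higher (Pdgfc), where 4.55% of genes were, and it and Pdgfd had no overlap (13.3%). Counts of 1 or 2 among 6 genes are too few to set the members apart from these shares.

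Chronic 24 h against acute 24 h had the most calls. Pdgfb, Pdgfc, Pdgfd and Pdgfrb were higher there, 4 of 6 where 10.9% of genes were higher, and all of these but Pdgfb had no overlap (33.2% of genes). The median log2 fold change of the 6 members was 2.06, against 0.01 over all genes. In the higher-depth libraries alone 2 of the 4 calls were left, those of Pdgfd and Pdgfrb. In chronic 14 d against chronic 24 h 1 member was higher (Pdgfd), where 6.65% of genes were, and it and Pdgfrb had no overlap (24.6%).

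**Figure D2:**
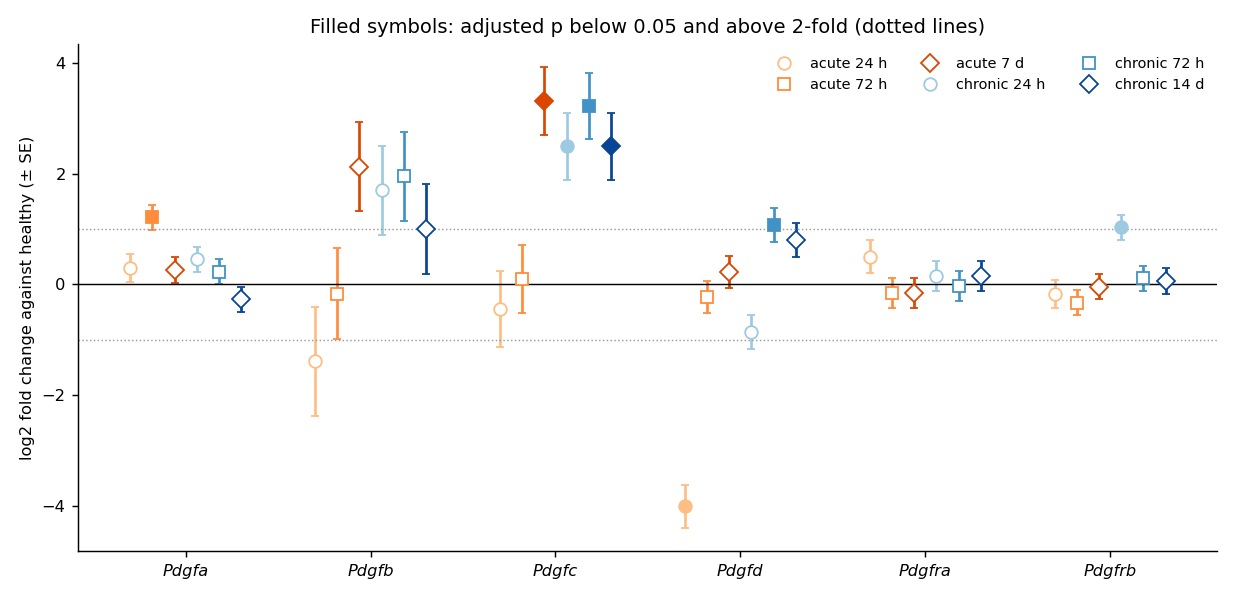
Log2 fold change of each PDGF gene (horizontal axis) against healthy, with its SE, for the 6 injured groups (colours and symbols). Filled symbols passed an adjusted p of 0.05 and a 2-fold change, whose limits are dotted. The filled points of Pdgfc lie between 2.49 and 3.31, and the one of Pdgfd in acute 24 h at -4.00.

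Pdgfd (ENSMUSG00000032006, chromosome 9, 6168584 to 6378850, plus strand, GRCm38), the gene of a latent ligand of the receptor beta, changed most among the members. It was all but lost 24 h after a first injury and stood above its healthy level 72 h after the last of repeated injuries. Pdgfc (ENSMUSG00000028019, chromosome 3, 81036416 to 81214040, plus strand), the gene of the latent ligand of the receptor alpha, moved from near the detection limit to a clear signal in 4 of the 6 injured groups. The bases just upstream of the RefSeq transcript starts of these genes, the ligand genes called most often, are shown here as reference sequence on GRCm38.p6, 5′ to 3′ on the plus strand, with motif matches in capitals. The Pdgfc stretch is chr3:81036166-81036415 and the Pdgfd stretch is chr9:6168236-6168485, each 250 bases long.
Pdgfc: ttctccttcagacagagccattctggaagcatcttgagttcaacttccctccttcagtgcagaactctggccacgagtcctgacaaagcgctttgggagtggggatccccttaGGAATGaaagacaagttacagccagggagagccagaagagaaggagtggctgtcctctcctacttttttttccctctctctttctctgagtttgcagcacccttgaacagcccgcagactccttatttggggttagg
Pdgfd: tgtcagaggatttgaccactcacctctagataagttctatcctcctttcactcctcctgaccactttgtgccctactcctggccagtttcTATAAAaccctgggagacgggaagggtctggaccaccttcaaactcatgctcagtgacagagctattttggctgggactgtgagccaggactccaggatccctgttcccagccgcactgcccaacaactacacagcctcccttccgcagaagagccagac

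Each stretch was searched on both strands for the GC box GGGCGG, the CCAAT box CCAAT, the TATA box TATAAA, the AP-1 site TGANTCA and the TEAD site GGAATG. Upstream of Pdgfc the one match was GGAATG, which 12.6% of all 32851 mouse promoter stretches of the same length hold. Upstream of Pdgfd the one match was TATAAA, which 12.4% hold. A match describes letters in these windows and is not evidence of binding. Sequences of the other members were not used here.

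The level of Pdgfd was 24.3, 14.8, 22.7 and 25.0 CPM in the 4 healthy libraries. At 24 h after 1 injection it was 1.34, 1.04 and 1.67 CPM, from 15, 12 and 19 counts. The groups were far apart, with the lowest healthy library still far above the highest acute one. Pdgfd was 16.0-fold lower in acute 24 h (log2 fold change -4.00, SE 0.39, adjusted p 1.13e-07, edgeR with Benjamini-Hochberg adjustment, as for every fold change below). By 72 h after the same injection its level was 11.2, 11.3, 31.4 and 20.3 CPM, and at 7 d it was 15.0, 19.9, 25.9 and 40.1 CPM. Both sets of libraries overlapped the healthy ones, with log2 fold changes of -0.22 (SE 0.29, adjusted p 0.644) and 0.22 (SE 0.29, adjusted p 0.648). The step up from acute 24 h to acute 72 h was 3.77 on the log2 scale (SE 0.39, adjusted p 5.44e-07), a comparison in which 11.2% of all genes were called higher.

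After 8 injections Pdgfd lay less far below healthy at 24 h. The chronic 24 h libraries held 14.5, 7.96, 12.9 and 12.2 CPM, all below the lowest healthy library, and the log2 fold change against healthy was -0.86 (SE 0.30, adjusted p 0.0306), under the 2-fold limit set for a call. Without healthy replicate 2 it was -1.01 and was called, and in the higher-depth libraries alone it was -0.78 (adjusted p 0.184). Set directly against acute 24 h, Pdgfd was 8.77-fold higher in chronic 24 h (log2 3.13, SE 0.38, adjusted p 3.67e-06). At 72 h after the last injection its level was 39.3, 41.9, 54.6 and 46.5 CPM, above every healthy library (log2 fold change 1.07, SE 0.30, adjusted p 0.012). That call fell under 2-fold without healthy replicate 2 (0.93), while in the higher-depth libraries alone it was 1.25 (adjusted p 0.0374). At 14 d the level was 32.7, 39.2, 38.4 and 40.7 CPM, again above every healthy library, yet the log2 fold change of 0.80 (SE 0.30, adjusted p 0.0949) did not pass the threshold. Against chronic 24 h, Pdgfd was 3.17-fold higher at 14 d (log2 1.66, SE 0.30, adjusted p 0.000345) and 3.82-fold higher at 72 h (log2 1.94, SE 0.31, adjusted p 0.000125), where 4.72% of all genes were called higher.

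In order of mean level Pdgfd ran from chronic 72 h (45.6 ± 6.72 CPM, SD, n = 4) over chronic 14 d (37.7 ± 3.51), acute 7 d (25.2 ± 10.9), healthy (21.7 ± 4.68), acute 72 h (18.6 ± 9.54) and chronic 24 h (11.9 ± 2.8) to acute 24 h (1.35 ± 0.313, n = 3). Only the last step of this order passed the test, and each other pair of neighbours did not differ beyond its spread (adjusted p from 0.182 to 0.749). The summed level of 10 hepatocyte markers also had its lowest values in acute 24 h, 23.4 to 225.8 CPM with Hamp at 0 in all 3 libraries, against 490.1 to 3122 CPM in healthy and 2166 to 3908 CPM in chronic 72 h libraries. Of the 10 markers, 9 were called lower in acute 24 h than in healthy and 7 higher in chronic 24 h than in acute 24 h, and 2 higher in chronic 72 h than in healthy. Of 11 endothelial markers, 5 were lower in acute 24 h and 7 in chronic 24 h than in healthy, and 9 were higher in chronic 14 d than in chronic 24 h. HSC markers moved as well, with 5 of 12 lower in acute 24 h and 9 in chronic 24 h than in healthy. From chronic 24 h to chronic 14 d 5 of them were higher. In chronic 72 h, where Pdgfd was higher than in healthy, 7 of the 12 were lower. The part of any of these cell types, or of a change within HSCs, in the Pdgfd values was not tested. The locus also holds Ddi1 on the opposite strand, and the strand used in counting is not given in the sources used here.

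Pdgfc had 8, 9, 28 and 0 counts in the healthy libraries, or 0.725, 0.878, 2.36 and 0 CPM. It stayed low early after a first injury, at 0.801, 0.955 and 0.439 CPM in acute 24 h and 0.974, 1.73, 0.65 and 0.929 CPM in acute 72 h, with log2 fold changes of -0.44 (SE 0.68, adjusted p 0.67) and 0.10 (SE 0.61, adjusted p 0.935). At acute 7 d the level was 3.72, 7.63, 15.9 and 12.5 CPM. All 4 of these libraries were above every healthy one, and Pdgfc was 9.89-fold higher (log2 3.31, SE 0.61, adjusted p 0.000338).

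In the chronic groups Pdgfc was called higher at each time. It reached 6.0, 9.06, 3.68 and 3.92 CPM at 24 h (log2 fold change 2.49, SE 0.60, adjusted p 0.00264). It reached 7.6, 10.0, 10.1 and 9.79 CPM at 72 h (log2 3.22, SE 0.60, adjusted p 0.000488). It was still 5.94, 5.13, 7.82 and 3.67 CPM at 14 d (log2 2.49, SE 0.60, adjusted p 0.0098), and no library of these 3 groups overlapped a healthy one. Chronic 14 d and chronic 24 h libraries overlapped and did not differ beyond their spread (log2 difference 0.01, SE 0.55, adjusted p 0.998). Chronic 24 h exceeded acute 24 h by 2.92 (SE 0.69, adjusted p 0.00352), and chronic 72 h exceeded acute 72 h by 3.12 (SE 0.60, adjusted p 0.000972), where 5.11% of all genes were called higher.

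Depth class differed between the libraries of these groups. In the higher-depth libraries alone, with 2 in each of the chronic 24 h and 72 h groups, the log2 fold change of Pdgfc against healthy was 1.94 at 24 h (adjusted p 0.076) and 3.35 at 72 h (adjusted p 0.00731). Chronic against acute at 24 h gave 2.33 in the higher-depth libraries (adjusted p 0.0788). At 14 d every library was of lower depth and every healthy one of higher depth, so depth and time cannot be told apart there, and with depth class as a term the value was 2.10 (adjusted p 0.14). In order of mean level the 4 called groups (9.94 ± 5.37 CPM in acute 7 d, 9.38 ± 1.19 in chronic 72 h, 5.66 ± 2.49 in chronic 24 h and 5.64 ± 1.73 in chronic 14 d) did not differ between neighbours, and the step down to acute 72 h (1.07 ± 0.463) was called (log2 difference 2.39, adjusted p 0.00577, with 6.57% of all genes higher in chronic 14 d than in acute 72 h). An antisense gene, Gm16000, lies over Pdgfc.

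Pdgfa (ENSMUSG00000025856, chromosome 5, 138976014 to 138997370, minus strand) makes a ligand of the receptor alpha that needs no extracellular cleavage. Its highest level came 72 h after a first injury. Its level was 11.5, 10.9, 13.6 and 16.6 CPM in healthy and 39.5, 24.6, 25.8 and 31.8 CPM in acute 72 h libraries, with no overlap. This was a 2.31-fold rise (log2 1.21, SE 0.23, adjusted p 0.000519), though not one shown to exceed 2-fold by a test against that limit. Before it, acute 24 h libraries held 15.4, 21.5 and 11.2 CPM, and after it acute 7 d libraries held 19.0, 17.4, 12.8 and 13.7 CPM, with log2 fold changes against healthy of 0.29 (SE 0.25, adjusted p 0.398) and 0.26 (SE 0.23, adjusted p 0.457).

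Pdgfa was not called in chronic injury. The chronic libraries ranged from 12.6 to 21.3 CPM at 24 h, 12.6 to 19.0 CPM at 72 h and 7.94 to 13.0 CPM at 14 d, and each of these groups overlapped healthy. Chronic 72 h lay below acute 72 h by a log2 difference of 0.98, just under 2-fold (SE 0.23, adjusted p 0.00529), and the libraries did not overlap. Chronic 14 d lay below chronic 24 h by 0.72 (SE 0.23, adjusted p 0.0272), also under 2-fold. The antisense gene 6330403L08Rik lies over Pdgfa.

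Pdgfb (ENSMUSG00000000489, chromosome 15, 79995874 to 80014977, minus strand), whose product binds both receptors, had 0 to 58 counts per library and was the scarcest member per kb in every group. Its level was 0.997, 0.488, 0.506 and 0.867 CPM in healthy, 0.623, 0.174 and 0 CPM in acute 24 h, and 1.06, 0.952, 0 and 0.542 CPM in acute 72 h libraries. These groups overlapped, and depth does not allow a finer reading of 12 counts or fewer.

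Higher values of Pdgfb appeared in later groups. They were 0.89, 3.77, 4.67 and 3.22 CPM at acute 7 d, 2.1, 4.26, 0.614 and 2.48 CPM at chronic 24 h, 2.8, 4.43, 1.25 and 2.82 CPM at chronic 72 h, and 2.3, 1.97, 1.32 and 0.147 CPM at chronic 14 d. Only chronic 72 h was free of overlap with healthy. None of these groups passed the test against healthy, with log2 fold changes of 2.12 (SE 0.80, adjusted p 0.0567), 1.70 (SE 0.80, adjusted p 0.114), 1.95 (SE 0.80, adjusted p 0.0893) and 1.00 (SE 0.81, adjusted p 0.503). By DESeq2 the chronic 72 h value was called (1.98, adjusted p 0.0452), as it was in a fit of these 2 groups alone (1.97, adjusted p 0.029). Acute 7 d was called by both as well. Without acute 7 d replicate 1, the library of that group with 11 counts, the acute 7 d value was 2.43 and was called. Between the 24 h groups Pdgfb was 8.51-fold higher in chronic than in acute libraries (log2 3.09, SE 0.98, adjusted p 0.0263), although the lowest chronic library (0.614 CPM) lay just under the highest acute one (0.623 CPM). That call was lost in the higher-depth libraries (2.47, adjusted p 0.159), with depth class as a term (2.55, adjusted p 0.0816) and in a fit of these 2 groups alone (3.1, adjusted p 0.0628). It was also lost without acute 24 h replicate 2, acute 24 h replicate 3 or chronic 24 h replicate 2, over a leave-one-out range of 2.53 to 4.57.

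Macrophage markers moved with Pdgfb from library to library. The summed level of 14 macrophage markers was 179.9 to 736.6 CPM in healthy, 178.2 to 259.2 in acute 24 h, 334.6 to 706.4 in acute 72 h, 4226 to 11087 in acute 7 d, 604.1 to 4026 in chronic 24 h, 1111 to 3163 in chronic 72 h and 836.5 to 2304 in chronic 14 d libraries. Of the 14 markers, 12 were called higher in acute 7 d, 10 in chronic 24 h, 10 in chronic 72 h and 5 in chronic 14 d than in healthy libraries, and Marco was at 0 in all healthy ones. In acute 24 h 2 were called higher and 2 lower than in healthy, and in acute 72 h 2 higher. In all 7 groups the library with the lowest macrophage sum was also the one with the lowest Pdgfb, and in 4 of the 7 groups the highest was shared too. The lowest and the highest were shared in 5 and 3 of the 7 groups for Pdgfc, 3 and 4 for Pdgfa, 2 and 1 each for Pdgfd and Pdgfra, and 1 and 2 for Pdgfrb. The C1q genes of complement, which macrophages make, were the genes most like Pdgfb over the 27 libraries (Pearson correlation of log2 CPM 0.90 for C1qc and 0.88 each for C1qb and C1qa). These genes are among the 14 markers summed above, so their likeness is not separate from the sums.

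**Figure D3:**
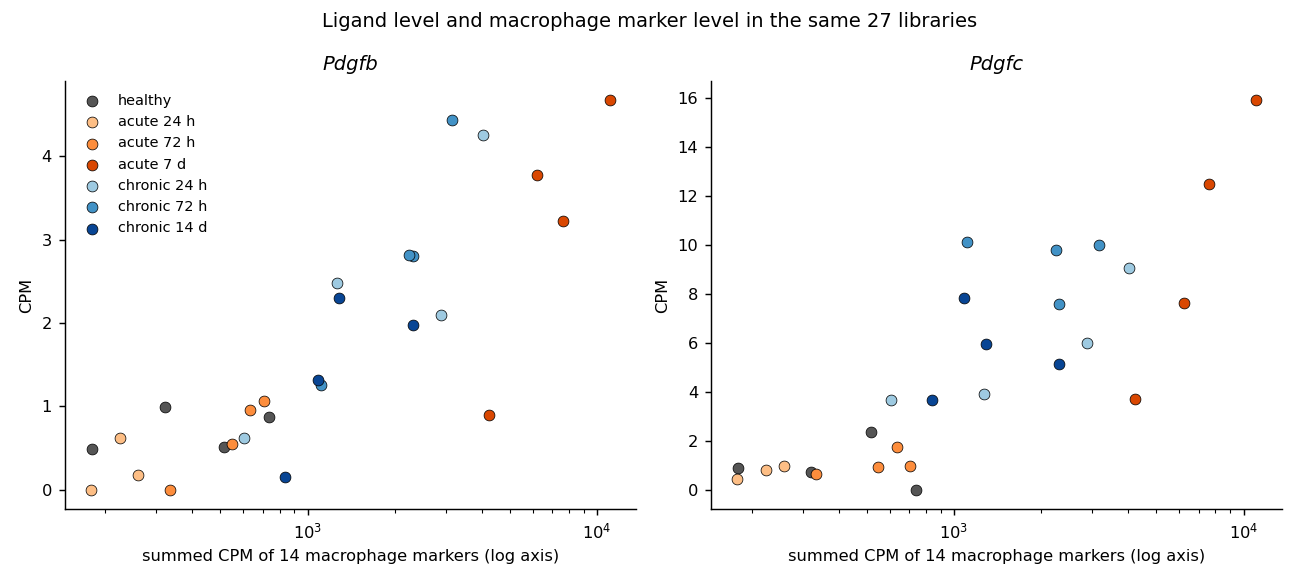
CPM of Pdgfb (left) and Pdgfc (right) on the vertical axes against the summed CPM of 14 macrophage markers (horizontal log axis) in the same 27 libraries, coloured by group. The 4 acute 7 d libraries lie farthest right, from 4226 to 11087 CPM of markers, with 0.89 to 4.67 CPM of Pdgfb and 3.72 to 15.9 CPM of Pdgfc, and both ligands were highest at 11087.

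Markers of other blood cells were called higher in injured groups too. Of the 4 neutrophil markers tested, 4 were higher than in healthy in acute 24 h, 2 in acute 72 h and 4 in each chronic group. Of 6 T and NK cell markers, 1 was higher in chronic 24 h, 2 in chronic 72 h and 3 in chronic 14 d. Of 5 B cell markers, 2, 3 and 4 were higher in these groups. In acute 7 d 4 of 6 T and NK cell, 4 of 5 B cell and 4 of 4 tested neutrophil markers were called higher than in healthy, and the T and NK cell sum was 10.1 to 27.6 CPM against 1.91 to 4.26 CPM. Endothelial markers summed to 209.0 to 555.0 CPM in healthy, 210.4 to 659.0 in acute 7 d, where 1 of 11 was called higher and none lower, and 80.7 to 220.3 in chronic 24 h, where 7 were called lower. Of the 8 platelet and megakaryocyte markers 4 were tested, and 1 was higher and 1 lower in acute 7 d. The 8 summed to 90.7 to 109.6 CPM in healthy and 41.5 to 63.5 CPM in acute 7 d libraries. Pf4, a platelet chemokine, averaged 10.8 CPM in healthy and 15.9 CPM in acute 7 d libraries, and Itga2b 88.7 and 34.0 CPM. Markers of portal fibroblasts and mesothelial cells were higher in the groups with more Pdgfc and, with lower sums, in acute 72 h. Their sums were 36.4 to 69.8 CPM in healthy, 42.2 to 85.3 in acute 24 h, 109.8 to 223.5 in acute 72 h and 305.2 to 355.3 in acute 7 d. They were 301.0 to 417.4 in chronic 24 h, 444.4 to 899.3 in chronic 72 h and 228.2 to 398.1 in chronic 14 d. Of these 8 markers 7 were tested, and 4 were called higher than healthy in each of the last 4 groups and 2 in acute 72 h. Dpt and Cd34 had the highest means of the list in chronic 72 h, 494.2 and 107.7 CPM. The part of any of these cell types in the Pdgfb and Pdgfc values was not tested.

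Of the receptors, Pdgfrb (ENSMUSG00000024620, chromosome 18, 61045150 to 61085061, plus strand), the gene of the kinase that marks activated HSCs and pericytes, stood out in 1 group. Its level was 901.6, 1179, 1262 and 865.7 CPM in healthy and 2342, 1978, 2018 and 2264 CPM in chronic 24 h libraries. Every chronic 24 h library was above every other library of the series, since the next highest value was 1775 CPM in chronic 72 h replicate 3. The fold against healthy was 2.04 (log2 1.03, SE 0.23, adjusted p 0.00136) and in the higher-depth libraries 1.04 on the log2 scale (adjusted p 0.0152). This stood so near the 2-fold limit that the call was lost without healthy replicate 1, healthy replicate 4 or chronic 24 h replicate 1, over a range of 0.95 to 1.13.

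A first injury left Pdgfrb near its healthy level, at 943.0, 779.8 and 1082 CPM in acute 24 h, 763.4 to 983.4 CPM in acute 72 h and 784.0 to 1324 CPM in acute 7 d libraries. The log2 fold changes were -0.17 (SE 0.25, adjusted p 0.642), -0.33 (SE 0.23, adjusted p 0.326) and -0.04 (SE 0.23, adjusted p 0.934). Chronic 24 h exceeded acute 24 h 2.30-fold (log2 1.20, SE 0.25, adjusted p 0.00143) without overlap. After the last injection Pdgfrb was 1186, 891.9, 1775 and 675.8 CPM at 72 h and 1182, 822.6, 1213 and 1185 CPM at 14 d, and both groups overlapped healthy. The falls from chronic 24 h were 0.93 at 72 h (adjusted p 0.00722) and 0.97 at 14 d (adjusted p 0.00362) on the log2 scale, under 2-fold. With chronic 24 h replicate 2 or chronic 14 d replicate 1 left out, the fall to 14 d was called, over a range of -1.0 to -0.81. Summed vascular smooth muscle markers were 17.1, 49.6, 94.1 and 136.2 CPM in chronic 24 h, against 4.42 to 12.9 CPM in healthy and 24.7 to 38.8 CPM in acute 72 h libraries. In chronic 24 h 4 of 5 markers were called higher than in healthy, and their part in the Pdgfrb values was not tested.

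Pdgfra (ENSMUSG00000029231, chromosome 5, 75152292 to 75198215, plus strand), the gene of the receptor of PDGF-A, PDGF-B and PDGF-C, was called in none of the 21 pairs of groups. Healthy libraries held 542.0, 525.6, 597.4 and 822.8 CPM. The highest mean was that of acute 24 h, from 1061, 754.2 and 815.7 CPM, with a log2 fold change against healthy of 0.50 (SE 0.30, adjusted p 0.209), and these libraries overlapped the healthy ones. The lowest mean, that of acute 72 h, came from 4 libraries close together, at 524.6 to 587.7 CPM (log2 -0.16, SE 0.27, adjusted p 0.73).

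The spread of Pdgfra within the recovering chronic groups was wide. Chronic 72 h libraries held 595.3, 533.7, 958.3 and 356.4 CPM, and chronic 14 d libraries 457.8 and 431.8 CPM in replicates 1 and 2 and 949.4 and 948.9 CPM in replicates 3 and 4. Chronic 72 h replicate 3 was the highest of its group for both receptors. From acute 24 h to acute 72 h the libraries did not overlap, yet the log2 difference of -0.66 (SE 0.29, adjusted p 0.116) did not pass, which does not show equal levels. Its neighbours in the order of mean levels had adjusted p from 0.402 to 0.998. Gm42802, annotated as antisense, and Gm42803 lie over Pdgfra.

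The ratio of both receptors within a library does not depend on how libraries are scaled. The log2 ratio of Pdgfra to Pdgfrb counts was -0.73, -1.17, -1.08 and -0.07 in the healthy libraries. In chronic 24 h it was -1.30, -1.98, -1.64 and -1.73, below every healthy library. The mean of -1.66 ± 0.28 (SD, n = 4) lay 0.90 under the healthy mean of -0.76 ± 0.50 (exact two-sided permutation test, p 0.0286, the smallest that 4 against 4 allows, adjusted p 0.171 over 6 tests). In acute 24 h it was 0.17, -0.05 and -0.41, with a mean difference of 0.67 (exact permutation test, p 0.114, adjusted p 0.343, smallest possible 0.0571). The other 4 groups differed from healthy by -0.12 to 0.18 (exact permutation tests, p from 0.514 to 1). On the level per kb, mean Pdgfrb was 3.10 times mean Pdgfra in healthy, 1.95 times in acute 24 h and 5.66 times in chronic 24 h libraries.

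**Figure D4:**
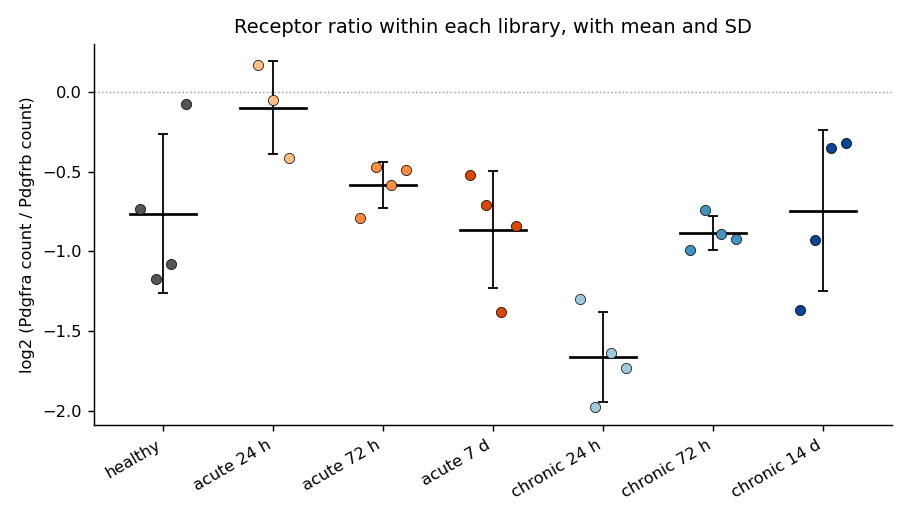
Log2 ratio of Pdgfra to Pdgfrb counts (vertical axis) in each of the 27 libraries (points) by group, with mean and SD in black and a dotted line at equal counts. The 4 chronic 24 h libraries lie between -1.98 and -1.30, below all healthy libraries.

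Around the members, 58 further genes of the pathway and its relatives were read in 6 lists, of which 57 were tested. In the order acute 24 h, 72 h and 7 d and chronic 24 h, 72 h and 14 d against healthy, 7, 7, 6, 9, 6 and 5 of them were higher and 5, 5, 5, 5, 3 and 1 lower. The shares of all genes called, in either direction, were 22.0%, 12.6%, 14.9%, 19.3%, 12.1% and 5.72%.

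Among the 8 genes of ligand processing and matrix binding, both plasminogen activators, secreted proteases known to release active PDGF-C (Plat) and PDGF-D (Plau), rose, Plat in 6 and Plau in 5 of the 6 injured groups. The healthy mean of Plat was 22.8 ± 8.41 CPM (SD, n = 4). It was higher in all 6 injured groups, from a log2 fold change of 2.41 in chronic 14 d (adjusted p 1.3e-05) to 5.21 in chronic 24 h (adjusted p 8.91e-11), where its mean was 844.3 ± 131.5 CPM. Plau rose from 2.26 ± 0.311 to 60.3 ± 25.9 CPM in chronic 24 h (log2 4.73, SE 0.45, adjusted p 3.91e-08) and to 30.9 ± 13.9 CPM in acute 24 h (log2 3.76, SE 0.44, adjusted p 1.06e-06), and was not called in chronic 14 d (1.07, adjusted p 0.118). Acute 24 h was also the group with the lowest Pdgfd. Pcsk5, a proprotein convertase, was lower in acute 72 h (-1.60, adjusted p 2.87e-05) and chronic 24 h (-1.16, adjusted p 0.000415). Lrp1, an endocytic receptor that associates with the receptor beta, was lower in acute 7 d (-1.20, adjusted p 0.015) and chronic 14 d (-1.11, adjusted p 0.049). From chronic 24 h to 14 d Plat fell by 2.80 (adjusted p 4.98e-07) and Plau by 3.66 (adjusted p 1.93e-06), a step in which 6.11% of all genes were lower.

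The 24 adaptors and effectors downstream of the receptors had few calls, with 0 or 1 higher and 0 to 3 lower in each comparison with healthy and medians from -0.26 to -0.04. Hras, a small GTPase, was higher in acute 24 h (2.67, SE 0.59, adjusted p 0.00124). Gab1, a docking protein, was lower there (-1.90, SE 0.30, adjusted p 3.51e-05) and in chronic 24 h (-1.07, SE 0.26, adjusted p 0.00334). Nck2, an adaptor that binds phosphorylated receptors, was called lower in acute 72 h (-1.08, adjusted p 0.000256), acute 7 d (-1.11, adjusted p 0.000183), chronic 24 h (-1.30, adjusted p 1.54e-05) and chronic 72 h (-1.07, adjusted p 0.000312).

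Of the 12 negative regulators, 1 was higher in acute 24 h and none in the other comparisons with healthy, and 0 to 3 were lower. Spry2, a Sprouty inhibitor of growth factor signalling, fell by 1.12 in acute 7 d (adjusted p 0.00129), by 1.17 in chronic 24 h (adjusted p 0.00056) and by 1.00 in chronic 72 h (adjusted p 0.00373). Dusp6, a phosphatase of ERK, fell by 1.22 in acute 72 h (adjusted p 0.000467) and by 1.35 in acute 7 d (adjusted p 0.000166). Against acute 24 h, chronic 24 h libraries had 3 of the 12 lower, namely Spry4 (-1.46, adjusted p 9.21e-05), Ptpn2 (-1.28, adjusted p 0.00105) and Spry2 (-1.18, adjusted p 0.00152), where 3.05% of all genes were lower, and 1 higher.

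The list of 6 genes that respond early to PDGF in cultured mesenchymal cells (Ccl2, Cxcl1, Egr1, Fos, Junb and Myc) had 2 higher in acute 24 h, 2 in acute 72 h, 3 in chronic 24 h, 1 in chronic 72 h and none in acute 7 d and chronic 14 d. Of all 18758 genes, 1765 were called higher in acute 24 h, 1543 in acute 72 h, 2095 in chronic 24 h and 1479 in chronic 72 h. None of the 6 was called lower in any of the 8 comparisons, where 12.5% of all genes were lower in acute 24 h against healthy. Counts among 6 genes are too few to set the list apart from all genes in either direction. Many other stimuli, including the handling of cells, also move these genes.

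The 5 VEGF genes, whose products share the cystine-knot fold of PDGFs, gave the largest rise of any list gene in acute 72 h. Vegfd stood at 1.99 ± 1.8 CPM in healthy and 54.2 ± 19.1 CPM in acute 72 h libraries (SD of 4), which is 4.76 on the log2 scale (SE 0.58, adjusted p 3.98e-06). It was higher in every injured group but acute 24 h. In chronic 24 h it exceeded acute 24 h by 4.2 (SE 0.65, adjusted p 6.5e-05), as Pdgfd did by 3.13. Of the receptor kinases closest to PDGF receptors, Csf1r, the macrophage receptor of CSF1 and one of the macrophage markers, was lower in acute 24 h (-2.38, SE 0.61, adjusted p 0.00423) and higher in acute 7 d (2.86, SE 0.55, adjusted p 0.00058), chronic 24 h (1.73, SE 0.53, adjusted p 0.0154) and chronic 72 h (1.69, SE 0.53, adjusted p 0.0261). Kit, the receptor of stem cell factor, was lower in acute 24 h (-2.06, SE 0.51, adjusted p 0.00293) and acute 72 h (-1.46, SE 0.44, adjusted p 0.0202), and higher at chronic 14 d than in healthy (1.40, SE 0.43, adjusted p 0.0422) and than at chronic 24 h (1.63, SE 0.43, adjusted p 0.00862).

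The profile of each member over the 27 libraries was also set beside those of 10288 genes whose average log2 CPM was 3 or more, by the Pearson correlation of log2 CPM. The libraries share groups, depth classes and sorting, so these values describe likeness only. Pdgfa was most like Sae1 (0.83), H2afx and Cdt1 (0.79 each). Pdgfc was most like Fndc5 (0.91), Acvrl1 and Dnm1 (0.90 each), and Pdgfd most like Isoc1 (0.94), Pygo1 and Tmem44 (0.93 each). For the receptors the closest genes were Nrip1 (0.83), Chst15 (0.81) and Acsl4 (0.80) for Pdgfra, and Anks6 (0.84), Mrvi1 and Mroh1 (0.81 each) for Pdgfrb. Among the members themselves, Pdgfb and Pdgfc had the highest correlation (0.72), followed by Pdgfc and Pdgfd (0.48) and Pdgfb and Pdgfd (0.42), while Pdgfra and Pdgfrb had 0.36. Pdgfa had negative values with all 5 others (-0.25 to -0.05).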

How the data were processed

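RNA of sorted HSCs was sequenced in 27 libraries of 7 groups. Single-end reads were mapped by the authors to GRCm38 using STAR, followed by StringTie. Deposited by the authors were raw counts for each Ensembl gene, whole numbers that had not been normalized. Versions, strand and annotation release are not given in the sources used here. All columns were matched to a library by title. Symbols, positions and exon lengths were taken from GENCODE M21 (53274 of 53379 gene IDs found), and promoter stretches from the RefSeq table on GRCm38.p6. That table had no row for Pdgfb, and its Pdgfrb row was not used, which left 4 of the 6 members.

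Counts were fitted in R 4.3.3 with edgeR 4.0.16 (trimmed mean of M values, filterByExpr, robust quasi-likelihood, 1 mean per group over 27 libraries). Calls needed an adjusted p (Benjamini-Hochberg over 18758 genes) under 0.05 and more than a 2-fold change. The study used DESeq2, run here (1.42.0) as an alternative. The receptor ratio used a pseudocount of 0.5 count. The members, lists and tests were chosen with earlier results of these data known, so no list is independent evidence. The named genes are the members, up to 3 called list genes in each direction per comparison whose average log2 CPM was 1 or more, the 3 genes most like each member, and marker genes of cell types whose summed level moves with a result. The procedure was tested on simulated data. Alternatives were other scalings, filters, call rules, depth class, the replicate number as a block, a fit of 2 groups and each library left out.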

Additional observations from a re-analysis of the deposited data

Results flagged for a closer look

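Dixon's test (critical value 0.829 for 4 samples) was run on the 6 members and the receptor ratio in the 6 groups of 4, 42 tests, of which chance alone gives about 1 in 20. It picked out 2 libraries. Pdgfc in chronic 72 h replicate 1 was 7.6 CPM beside 9.79 to 10.1 CPM in the others, a gap of 0.871 of the range. Pdgfrb in chronic 14 d replicate 2 was 822.6 CPM beside 1182 to 1213 CPM, a gap of 0.919 of the range. Both libraries were of lower depth, as were chronic 72 h replicate 2 and all other chronic 14 d libraries.

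Repeated and first injury differed at the same hour. At 24 h the direct test of chronic against acute libraries gave log2 fold changes of 3.09 for Pdgfb (adjusted p 0.0263), 2.92 for Pdgfc (adjusted p 0.00352), 3.13 for Pdgfd (adjusted p 3.67e-06) and 1.20 for Pdgfrb (adjusted p 0.00143), all by edgeR. At 72 h it gave 3.12 for Pdgfc (adjusted p 0.000972) and 1.29 for Pdgfd (adjusted p 0.00442). Every chronic library was above every acute one in these cases except Pdgfb at 24 h, where the lowest chronic library (0.614 CPM) lay under the highest acute one (0.623 CPM). These cases were picked as called, and 33.2% of all genes had no overlap at 24 h. The share at 72 h is not given here. Pdgfa went the other way at 72 h, without overlap and under 2-fold (log2 fold change -0.98, adjusted p 0.00529). The groups also differ in age at the first injection and, for 2 libraries in each of chronic 24 h and chronic 72 h, in depth. The chronic course took 4 weeks, so age at collection is not matched either.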

How the results depend on the processing

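Apart from left-out libraries, the log2 fold changes of the members kept direction and call in 533 cases, lost the call in 15, gained it in 11 and changed sign in 8. None of the sign changes concerned a called value. Those 8 were 0.061 (library size alone) and 0.00012 (higher depth only) for Pdgfrb in acute 7 d, 0.10 and 0.11 in the same settings for Pdgfra in chronic 72 h, and, in chronic 14 d against chronic 24 h, -0.14 (depth class as a term), -0.36 (lower depth only) and -0.011 (replicate block) for Pdgfc and -0.014 (replicate block) for Pdgfra. A test against a 2-fold minimum left 0 of 1 member in acute 72 h, 1 of 2 in chronic 24 h, 1 of 2 in chronic 72 h, 0 of 1 in chronic 14 d, 2 of 4 in chronic 24 h against acute 24 h and 0 of 1 in chronic 14 d against chronic 24 h, since it asks for more than a 2-fold estimate. In acute 7 d 2 members in place of 1, Pdgfb being added, were called with library size alone, an adjusted p of 0.1, the replicate block, the 2 groups alone and DESeq2. In chronic 72 h 3 in place of 2, Pdgfb again being added, were called with an adjusted p of 0.1, the 2 groups alone and DESeq2. A fit of the 2 groups alone gave 1 in chronic 24 h, 0 in chronic 14 d and 3 in chronic 24 h against acute 24 h, where Pdgfb was lost. Higher-depth libraries gave 1 in chronic 24 h and 2 in chronic 24 h against acute 24 h, with fewer samples. Depth class as a term gave 0 in chronic 14 d and 3 in chronic 24 h against acute 24 h, where Pdgfb was again lost. No fold minimum gave 3 in chronic 14 d against chronic 24 h. The cause of the other changes was not tested.

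With single libraries left out, the number called ran from 1 to 2 in acute 7 d, chronic 72 h and chronic 14 d against chronic 24 h, from 1 to 3 in chronic 24 h and from 3 to 4 in chronic 24 h against acute 24 h. Against healthy, uncalled values that changed sign ranged from -0.85 to 0.46 (Pdgfc, acute 24 h), -0.52 to 0.24 (Pdgfb, acute 72 h), -0.31 to 1.00 (Pdgfc, acute 72 h), -0.23 to 0.0032 (Pdgfra, acute 72 h), -0.097 to 0.41 (Pdgfd, acute 7 d), -0.28 to 0.0082 (Pdgfra, acute 7 d), -0.18 to 0.086 (Pdgfrb, acute 7 d), -0.025 to 0.33 (Pdgfra, chronic 24 h), -0.29 to 0.16 (Pdgfra, chronic 72 h), -0.16 to 0.29 (Pdgfrb, chronic 72 h) and -0.018 to 0.22 (Pdgfrb, chronic 14 d). They ranged from -0.037 to 0.43 for Pdgfa in chronic 24 h against acute 24 h, and from -0.16 to 0.33 (Pdgfc) and -0.14 to 0.21 (Pdgfra) in chronic 14 d against chronic 24 h.

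The replicate number as a block changed no other call than that of Pdgfb in acute 7 d (log2 fold change 2.31). The deviations of same-numbered libraries from their group means correlated between -0.176 and 0.22, not above 0.1 for every pair in any comparison, so the numbers were not taken as pairs. Nor did every library correlate best with its own number in any comparison. With library size as the only scaling the median log2 fold change over all genes reached 0.177. Of the genes called in chronic 14 d, 91.2% were then higher instead of 79.6%, and in chronic 14 d against chronic 24 h 67.2% instead of 52.1%. Over all genes, the test against a 2-fold minimum called 251 genes higher in chronic 14 d in place of 854, and depth class as a term 427. Ranks in place of Pearson correlation kept 1 of the 3 genes most like Pdgfa and Pdgfc, and 0 of those of Pdgfd and Pdgfrb. Depth limits Pdgfb and the healthy values of Pdgfc, which rest on 28 counts or fewer in healthy libraries.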
